A study of Mus musculus with 6 samples.

Results

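The genes described here are 33 genes of glycolysis and of the response to low oxygen, listed by symbol. Versioned Ensembl identifiers in the gene tables were matched to symbols, and all 33 were found among 52550 gene identifiers. They were measured by RNA sequencing in primary keratinocytes, the epithelial cells of the epidermis, from wild type C57BL/6 mice at postnatal day 0 to 2. The cells were grown from trypsin-digested epidermis for 2 days in 48-well plates under 5% CO2. One group of 3 libraries was left untreated, and the other group of 3 received recombinant IL-33, an alarmin cytokine related to IL-1, for 12 h. Neither its dose nor the number of mice per library is stated in the labels. Whether replicate libraries came from independent cultures or animals is likewise not stated, so each p-value reflects variation among these libraries alone, and that variation may be technical.

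Glycolysis breaks glucose down to pyruvate in the cytosol. Pyruvate then enters the mitochondrion through pyruvate dehydrogenase or is reduced to lactate and exported. When oxygen is plentiful, prolyl hydroxylases mark HIF-1alpha, the oxygen-regulated subunit of the transcription factor HIF-1, and the VHL protein directs its destruction. When oxygen is scarce, HIF-1 persists and binds a short motif near its target genes, which include glucose transporters, most glycolytic enzymes, lactate dehydrogenase A and the prolyl hydroxylases themselves. Part of this control acts on protein, which RNA levels do not measure.

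The libraries held between 34188173 and 45266298 deposited counts, with IL-33 library 2 the shallowest. Basal keratinocyte markers summed to between 35203 and 36290 counts per 1000000 (CPM, scaled between libraries by the TMM method) in untreated libraries and between 35346 and 37969 CPM with IL-33, and all 7 of these markers were above the floor of 12 deposited counts in every library. Suprabasal markers summed to 97.0 to 139 CPM and 105 to 121 CPM. Markers of melanocytes summed to 1094 to 1147 CPM and 1093 to 1187 CPM, those of fibroblasts to 33.4 to 41.4 CPM and 29.6 to 33.8 CPM, and those of endothelial cells to 13.5 to 19.8 CPM and 16.3 to 17.1 CPM. Immune cell markers summed to at most 0.760 CPM and 3.10 CPM, with Cd3e and Cd207 at 0 in all libraries. Muscle and red blood cell markers stayed below 0.9 CPM, with Myh3, Myh8, Hba-a1, Hba-a2 and Hbb-bt at 0. The part of these other cell types in the results below was not tested. In bulk RNA, fewer cells of a type and less RNA per cell cannot be told apart.

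The main enzymes of lower glycolysis were among the abundant transcripts of these cells, and 12 h of IL-33 left no glycolysis or hypoxia gene past the threshold. All 33 genes passed the filter on low counts. None was called by edgeR's quasi-likelihood test at a Benjamini-Hochberg adjusted p under 0.05, where 11 of 15778 genes were called, 0.0697% of those tested. DESeq2 called none of the 33 (0.463% of all genes) and limma-voom none (0.0317%). At an unadjusted p under 0.05, 3 of the 33 genes passed, Tpi1 and Pfkm with higher and Slc16a1 with lower values under IL-33, and 6.74% of all genes did so. The 3 IL-33 libraries did not overlap the 3 untreated libraries for 5 of the 33 genes, against 13.7% of all genes. Of these 5, Tpi1, Pfkm, Gapdh and Pgam1 lay higher (7.39% of all genes) and P4ha2 lower (6.26%). The smallest adjusted p among the 33 was 0.575, for Tpi1.

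The fold changes were small in both directions. Of the 33 genes, 16 had a log2 fold change above 0 and 17 below it, 48.48% above 0 against 50.49% of all genes tested. Their median log2 fold change was -0.0033, and that of all genes was 0.0018. For 26 genes the 95% interval of the fold change lay within 0.5 log2 units of 0, and for 27 it lay within 1.5-fold either way. For the others a larger change is not excluded, in a single direction or in both. They include Car9 (-1.37 to 1.53) and Ankrd37 (-1.05 to 2.79), which have few counts and intervals open both ways. They also include genes with ample counts that varied between libraries, such as Gapdh (-0.17 to 0.74) and Pfkfb3 (-0.30 to 0.67). For these a larger rise is not excluded.

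**Figure D1:**
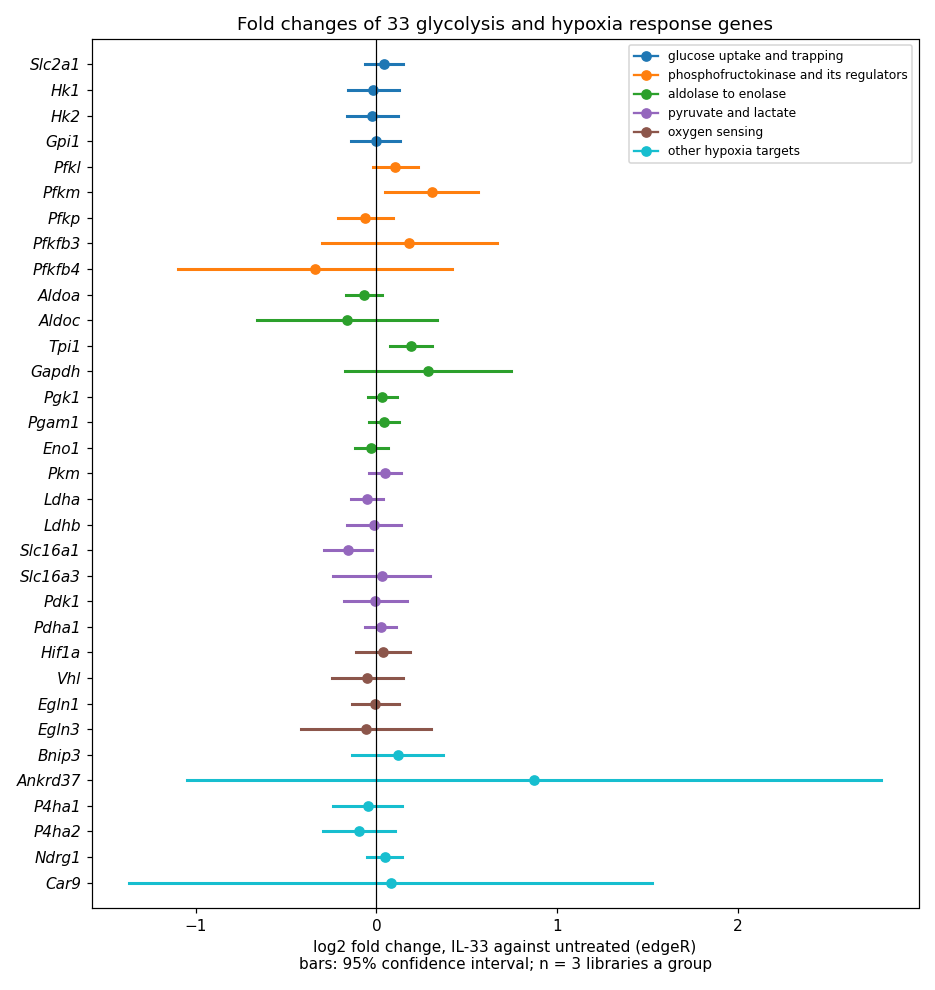
Log2 fold change of each of the 33 genes (x axis, IL-33 against untreated, edgeR) with its 95% confidence interval, coloured by role, from 3 libraries a group. The intervals are narrow for most abundant enzymes but not for Gapdh, and widest for Ankrd37 and Car9, which lie near the floor of counting. Those of Pfkfb3 and Pfkfb4 are wide as well, and those of Tpi1, Pfkm and Slc16a1 do not reach 0.

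Levels between genes are given as gene-level FPKM, fragments per kilobase of the gene's annotated exons scaled to library depth, averaged over all 6 libraries. Pkm, pyruvate kinase, had the highest level of the 33 at 398 FPKM and ranked 83 among the 15778 tested genes. Below it stood Pgk1 (299 FPKM), Ldha (230), Eno1 (219), Pgam1 (195), Aldoa (186), Gapdh (158) and Tpi1 (129). The value for Gapdh leaves out counts assigned to near-identical copies of the gene, described below. These were 56.9% to 68.3% of the counts of Gapdh and its copies together, so its place in this order is not settled. The early steps were lower, with Slc2a1 at 79.0 FPKM, Gpi1 at 36.9, Pfkl at 15.6, Hk2 at 13.0 and Hk1 at 7.60. Egln3, Pfkfb4 and Aldoc lay between 1.01 and 1.74 FPKM, and Ankrd37 and Car9 at 0.291 and 0.168 FPKM. Gene-level FPKM divides by all annotated exon bases, retained introns included, so it runs low for genes with long minor transcripts. The sum of a gene's transcript FPKM was 1.00 to 4.99 times the gene-level value, largest for Pfkp, and the order of the genes differs on that scale. There Pkm (851) still led, followed by Eno1 (602), Gapdh (528), Aldoa (440), Ldha (438), Pgk1 (370), Tpi1 (223) and Pgam1 (195). Gpi1 was at 125 on it, and Pfkp at 32.1 stood above Hk1 (15.7) and Hk2 (14.3), against 6.43 by gene-level FPKM.

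**Figure D2:**
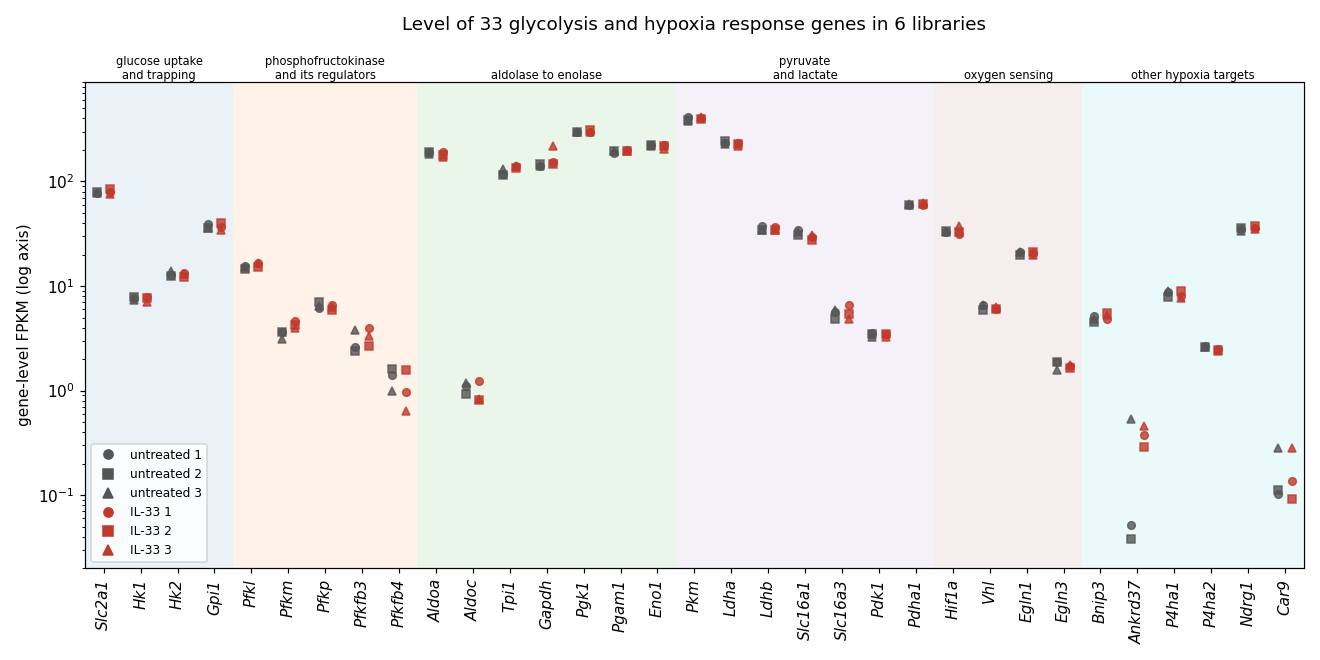
Gene-level FPKM (y axis, log scale) of each of the 33 genes in the 3 untreated (grey) and 3 IL-33 (red) libraries, grouped by role. Lower glycolysis, from aldolase to lactate dehydrogenase A, forms the upper band between 115 and 412 FPKM with Aldoc far below it, and the 2 groups lie on each other for most genes.

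Glucose uptake and trapping gave no call. Slc2a1 encodes GLUT1, the main glucose transporter of keratinocytes, and stood at 302, 307 and 302 CPM untreated and at 307, 333 and 297 CPM with IL-33. IL-33 library 2 was the highest and IL-33 library 3 the lowest of all 6, so the groups overlapped. The log2 fold change was 0.041 (SE 0.047, 95% interval -0.065 to 0.15, adjusted p = 0.901). Hk1 and Hk2, the hexokinases that phosphorylate glucose, were at 72.6 ± 2.09 and 87.1 ± 4.92 CPM untreated (SD, n = 3) and at 71.8 ± 3.88 and 85.8 ± 3.82 CPM with IL-33. Gpi1, which converts glucose 6-phosphate to fructose 6-phosphate, was at 265 ± 13.6 and 265 ± 20.0 CPM. Of these 4 genes 1 had a fold change above 0, and the widest 95% interval, that of Hk2, ran from -0.16 to 0.12.

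Phosphofructokinase commits glucose to glycolysis, and the fold changes of its 3 subunit genes were not all of 1 sign. Pfkm (ENSMUSG00000033065.13, chr15:98092589-98132451, plus strand, GRCm38), the muscle-type subunit, stood at 11.9, 12.0 and 10.4 CPM untreated and at 15.2, 13.9 and 13.3 CPM with IL-33. Every IL-33 library lay above every untreated one. The log2 fold change was 0.31 (SE 0.12, 95% interval 0.046 to 0.56), with an unadjusted p of 0.0256 and an adjusted p of 0.740, which misses the threshold. Pfkl, the liver-type subunit, was at 112 ± 4.35 and 120 ± 5.68 CPM with overlapping groups. Pfkp, the platelet-type subunit, was at 98.0 ± 6.61 and 93.9 ± 5.82 CPM, also overlapping.

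Pfkfb3 and Pfkfb4 encode bifunctional enzymes that set the level of fructose 2,6-bisphosphate, an activator of phosphofructokinase. Pfkfb3 stood at 22.1, 20.4 and 31.9 CPM untreated and at 33.1, 22.8 and 28.4 CPM with IL-33. Pfkfb4 stood at 7.62, 8.77 and 5.45 CPM untreated and at 5.30, 8.48 and 3.53 CPM with IL-33. Both genes varied by more within a group than between groups, and their intervals were wide, -0.30 to 0.67 for Pfkfb3 and -1.10 to 0.42 for Pfkfb4. The 3 libraries with the highest Pfkfb4 were the 3 with the lowest Pfkfb3, and they came from both groups.

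From aldolase to enolase, 6 of the 7 genes had mean levels between 129 and 299 FPKM, and none was called. Tpi1 (ENSMUSG00000023456.14, chr6:124810586-124814296, minus strand), triosephosphate isomerase, stood at 357, 352 and 399 CPM untreated and at 429, 407 and 429 CPM with IL-33. All 3 IL-33 libraries lay above the 3 untreated ones, and untreated library 3 was close to the lowest of them. The fold was 1.14 (log2 0.19, SE 0.053, 95% interval 0.073 to 0.31), with an unadjusted p of 0.00494 and an adjusted p of 0.575. Pgam1, phosphoglycerate mutase, stood at 382, 398 and 396 CPM untreated and at 410, 402 and 400 CPM with IL-33. These groups did not overlap either, but the difference was small, a log2 fold change of 0.044 (95% interval -0.038 to 0.13, adjusted p = 0.855).

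Pgk1, phosphoglycerate kinase, was at 738 ± 3.06 CPM without and 755 ± 24.2 CPM with IL-33, and Eno1, enolase, at 1323 ± 26.9 and 1297 ± 62.1 CPM. Aldoa, the main aldolase, was at 739 ± 21.2 and 705 ± 37.2 CPM, and Aldoc, the brain-type aldolase, at 3.92 ± 0.468 and 3.49 ± 0.856 CPM. The groups overlapped for these 4 genes.

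Gapdh, glyceraldehyde 3-phosphate dehydrogenase, is a common reference gene, and the size of its difference between the groups rested on 1 library. Gapdh (ENSMUSG00000057666.18, chr6:125161715-125166467, minus strand) stood at 643, 670 and 651 CPM untreated and at 701, 682 and 1012 CPM with IL-33. IL-33 library 3 stood apart from the other 5, and the log2 fold change of 0.29 (SE 0.17, 95% interval -0.17 to 0.74, adjusted p = 0.812) was 0.081 without it. In that library the annotated transcript Gapdh-201 carried 24014 deposited counts, and in the other 5 libraries it carried 0. Gapdh-203 carried 17768 deposited counts there and 21187 to 27811 in the others. With Gapdh-201 left out of the gene's count, the log2 fold change was -0.086 (adjusted p = 0.951, with a range of 0.579 to 0.958 over the alternatives). This takes counts from IL-33 library 3 alone, so a lower value was fixed by the choice. IL-33 libraries 1 and 2 lay above all 3 untreated libraries with or without that transcript.

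Much of the signal that could belong to Gapdh was assigned elsewhere. The mouse annotation holds 72 genes, most of them processed pseudogenes, whose transcripts match Gapdh at 95% identity or more, 68 of them with counts here. These copies carried 56.9% to 68.3% of the counts of Gapdh and its copies together, lowest in IL-33 library 3. The copies alone stood at 1335, 1443 and 1243 CPM untreated and at 1407, 1292 and 1336 CPM with IL-33. IL-33 library 3 was thus within the range of the others on the copies, and stood apart on Gapdh itself. Summed with its copies, Gapdh stood at 1978, 2113 and 1893 CPM untreated and at 2108, 1973 and 2347 CPM with IL-33. The groups then overlapped, with a log2 fold change of 0.10 (adjusted p = 0.813). Reads of such copies cannot be told from reads of the gene by these tables, and this applies to lesser degrees to Pgk1 (7.83% to 9.49% on copies), Pgam1 (8.11% to 9.11%), Bnip3 (0.0% to 3.64%) and Eno1 (0.91% to 2.44%). Tpi1, Pkm, Ldha and Ldhb had under 0.5% of their counts on a copy. Besides copies, 15 of the 33 genes share exon bases with an overlapping gene, most for Ankrd37 (22.68% of its exon bases with Lrp2bp), Bnip3 (22.25% with Gm45507), Pdha1 (16.15% with Map3k15) and Pkm (15.34% with Gm49759). Lrp2bp itself carried 0 to 6 deposited counts a library. Ufsp2, which shares 3.7% of the exon bases of Ankrd37, carried 1254 to 1493. Whether the counting used strand is not stated, so reads there cannot be told apart.

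**Figure D3:**
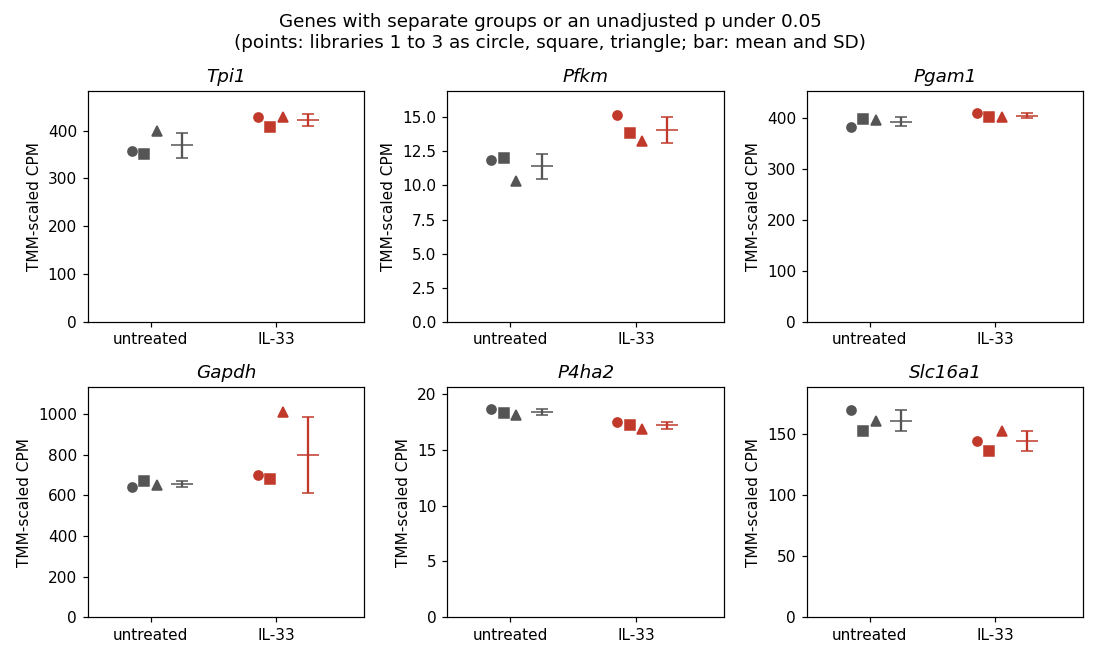
TMM-scaled CPM (y axis, from 0) of the 6 genes whose groups did not overlap or whose unadjusted p was under 0.05, with each library as a point and the mean and SD beside it, n = 3 a group. Tpi1, Pfkm and Pgam1 lie higher and P4ha2 lower with IL-33 without overlap, Slc16a1 overlaps at 152 CPM, and Gapdh in IL-33 library 3 stands apart at 1012 CPM.

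Pyruvate and lactate genes were close between the groups. Pkm (ENSMUSG00000032294.17, chr9:59656368-59679375, plus strand) stood at 2286, 2139 and 2096 CPM untreated and at 2247, 2210 and 2282 CPM with IL-33. The groups overlapped, with the highest and the lowest library both untreated (log2 fold change 0.048, 95% interval -0.039 to 0.13, adjusted p = 0.848). Ldha, which reduces pyruvate to lactate, was at 863 ± 29.7 and 833 ± 28.8 CPM, and Ldhb, the subunit that favours the reverse reaction, at 61.7 ± 3.39 and 61.1 ± 2.22 CPM.

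Slc16a1 (ENSMUSG00000032902.1, chr3:104638668-104658462, plus strand) encodes MCT1, a carrier of lactate and pyruvate. It stood at 170, 152 and 160 CPM untreated and at 144, 136 and 152 CPM with IL-33. The lowest untreated library and the highest IL-33 library met at 152 CPM, so the groups overlapped. The log2 fold change was -0.16 (SE 0.059, 95% interval -0.29 to -0.025), with an unadjusted p of 0.0246 and an adjusted p of 0.740. Slc16a3, which encodes the lactate exporter MCT4, was at 32.6 ± 3.23 and 33.2 ± 5.03 CPM. Pdk1, a kinase that inhibits pyruvate dehydrogenase, was at 29.7 ± 1.11 and 29.6 ± 1.14 CPM, and Pdha1, a subunit of that dehydrogenase, at 249 ± 3.17 and 253 ± 4.79 CPM.

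Pkm makes 2 well-known enzymes from 1 gene by including either of 2 neighbouring exons of the same length. The M2 form is known from proliferating cells and the M1 form from muscle and brain. The exons are shown because they are the part of the gene in which the 2 transcripts are told apart, with the 64 of 167 bases that differ between them in capitals (61.7% identity). Both were read from the GENCODE transcripts on GRCm38, plus strand, the M1 exon at chr9:59675029-59675195 and the M2 exon at chr9:59675568-59675734.
Pkm M1 exon: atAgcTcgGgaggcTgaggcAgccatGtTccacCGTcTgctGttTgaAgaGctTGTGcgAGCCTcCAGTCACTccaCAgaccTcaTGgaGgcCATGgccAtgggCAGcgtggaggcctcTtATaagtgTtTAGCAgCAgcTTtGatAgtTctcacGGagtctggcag
Pkm M2 exon: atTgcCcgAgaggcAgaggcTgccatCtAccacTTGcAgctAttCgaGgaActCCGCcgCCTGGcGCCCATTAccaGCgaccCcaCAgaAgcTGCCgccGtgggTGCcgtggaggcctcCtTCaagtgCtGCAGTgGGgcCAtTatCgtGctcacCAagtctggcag

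Transcripts with the M2 exon prevailed in all 6 libraries. Pkm-201, which holds it, stood at 685, 573 and 715 FPKM untreated and at 603, 582 and 760 FPKM with IL-33. Pkm-202, which holds the M1 exon, stood at 82.9, 207 and 32.9 FPKM untreated and at 214, 222 and 34.4 FPKM with IL-33. The M1 exon therefore took 10.8%, 26.5% and 4.40% of the FPKM on both forms in untreated libraries and 26.2%, 27.6% and 4.33% with IL-33. Untreated library 2 and IL-33 libraries 1 and 2 were high and the other 3 low, a division that crosses the groups. The difference of 5.48 percentage points (13.9 ± 11.4% against 19.4 ± 13.0%, SD, n = 3) had a two-sided exact permutation p of 0.8, where the smallest p that 3 against 3 allows is 0.1. These are the submitters' assignments of reads to transcripts, not counts of reads over each exon.

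**Figure D4:**
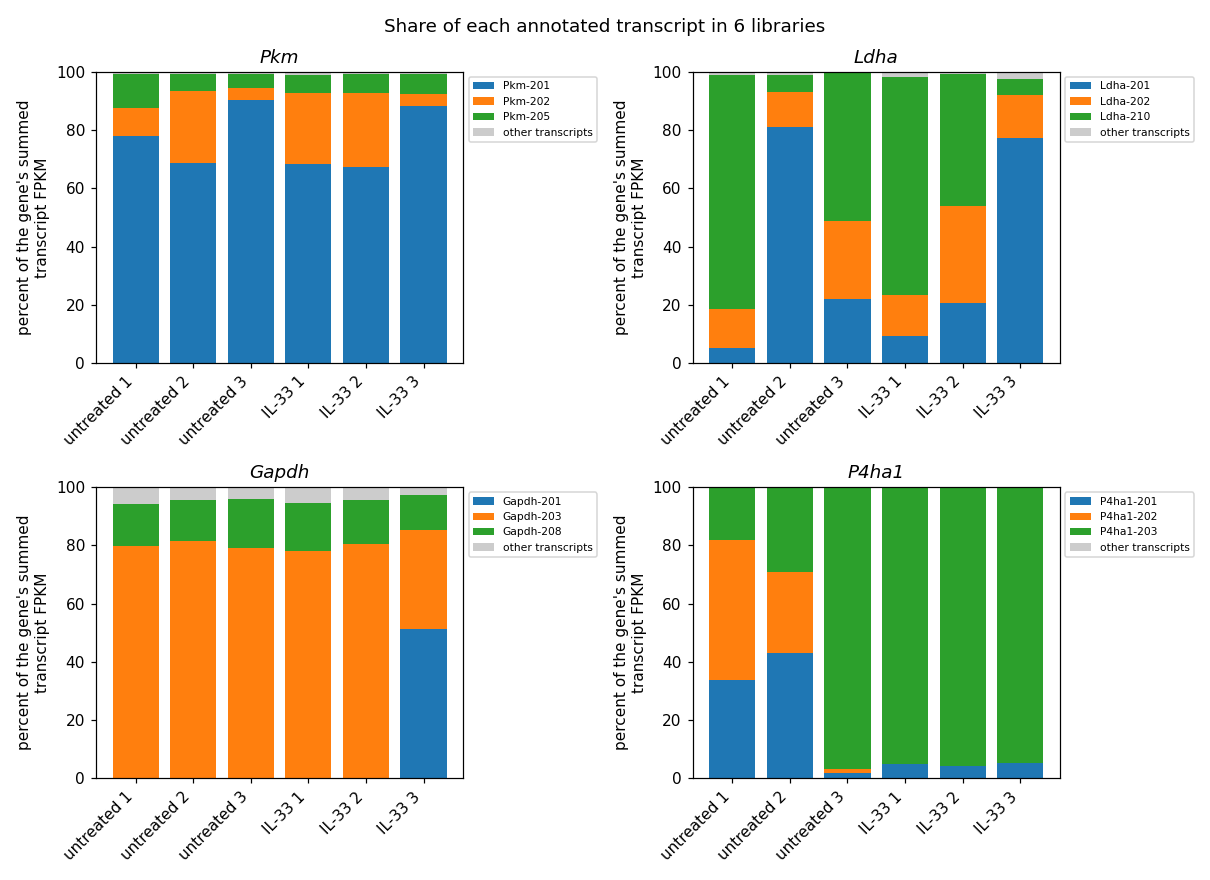
Percent of the summed transcript FPKM (y axis) taken by each annotated transcript of Pkm, Ldha, Gapdh and P4ha1 in each of the 6 libraries (bars). The leading Pkm transcript is Pkm-201 in all 6, Ldha alternates between Ldha-201 and Ldha-210 within both groups, Gapdh-201 appears in IL-33 library 3 alone, and P4ha1-203 leads in 4 libraries.

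Transcript assignment was unstable for several other genes. The leading transcript was the same in all 6 libraries for 24 of the 33 genes and changed between libraries for 9. Ldha-210 carried 31437, 2326 and 20147 deposited counts untreated and 28984, 13741 and 2102 with IL-33, and Ldha-201 carried 1973, 30579 and 8525 against 3520, 6084 and 28181. Ldha-201 was the larger in untreated library 2 and IL-33 library 3, 1 library of each group, and Ldha-210 in the other 4. P4ha1-202 carried 672, 305 and 21 deposited counts untreated and 0 in each IL-33 library. The gene as a whole did not follow it, at 1789, 1497 and 1847 deposited counts against 1610, 1408 and 1550. In untreated library 3 the transcript was near the floor as well, so only 2 untreated libraries stood apart.

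Of the 124 transcripts of 32 of these genes that could be tested with edgeR, none was called (0.0299% of 40163 transcripts). At an unadjusted p under 0.05, 4 passed, against 4.24% of all transcripts. These were Tpi1-205 and Slc2a1-202 with higher values and P4ha1-202 and Aldoa-212 with lower values under IL-33. Slc2a1-202, a short coding transcript of 698 bases, carried 258, 249 and 244 deposited counts untreated and 400, 290 and 443 with IL-33. All 3 IL-33 libraries lay above the untreated ones (log2 fold change 0.68, SE 0.19, adjusted p = 0.926). The longest transcript of the gene led in every library. It took 87.26% to 89.04% of the gene's transcript FPKM untreated and 83.12% to 85.25% with IL-33, lower without overlap. Whether this percentage differs between the groups was not tested.

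Isozyme balance was compared as the percent of a family's gene-level FPKM held by each member, in 8 families and 10 shares. The smallest exact permutation p that the design allows is 0.1, so no share could pass the threshold. Pfkm held 14.2%, 14.5% and 12.7% of the phosphofructokinase FPKM untreated and 16.6%, 16.6% and 14.8% with IL-33. Pfkp held 24.4%, 28.0% and 26.1% untreated and 23.9%, 23.1% and 23.5% with IL-33. In both cases the groups did not overlap, and their means differed by 2.20 and -2.68 percentage points. Each had a two-sided exact permutation p of 0.1 and a Benjamini-Hochberg adjusted p of 0.5 over the 10 shares. Shares within a family add up to the whole, so these results are not independent. For the other 8 shares the groups overlapped, with exact permutation p-values from 0.4 to 1.0.

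Among the genes counted, the one that leads a family was the same in both groups throughout. Aldoa held 99.4 ± 0.079% of aldolase FPKM untreated and 99.5 ± 0.10% with IL-33 (SD, n = 3). Ldha held 86.9 ± 0.805% and 86.6 ± 0.429% of lactate dehydrogenase, and Slc16a1 85.6 ± 0.940% and 83.9 ± 2.38% of the 2 lactate carriers. Egln1 held 92.1 ± 0.918% and 92.4 ± 0.437% against Egln3, and P4ha1 76.4 ± 1.17% and 77.0 ± 1.46% against P4ha2. The Egln1 share leaves out Egln2, which is not among the 33, and so is not a share of all HIF prolyl hydroxylases. Mean CPM of Egln2 was 62.0 in the untreated group and 69.0 in the IL-33 group, beside 82.6 and 82.4 for Egln1. CPM is not scaled to gene length, so these values do not rank Egln1 and Egln2. The share of Pfkp depends on the scale: with summed transcript FPKM in place of gene-level FPKM it was 52.1 ± 4.37% untreated and 47.1 ± 0.791% with IL-33, ahead of Pfkl at 42.4 ± 4.35% and 46.0 ± 0.989%, and its groups overlapped there while those of Pfkm did not. Likewise Hk1 held 36.9 ± 1.94% of hexokinase FPKM untreated by gene-level FPKM and 52.0 ± 2.47% by the transcript sum.

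**Figure D5:**
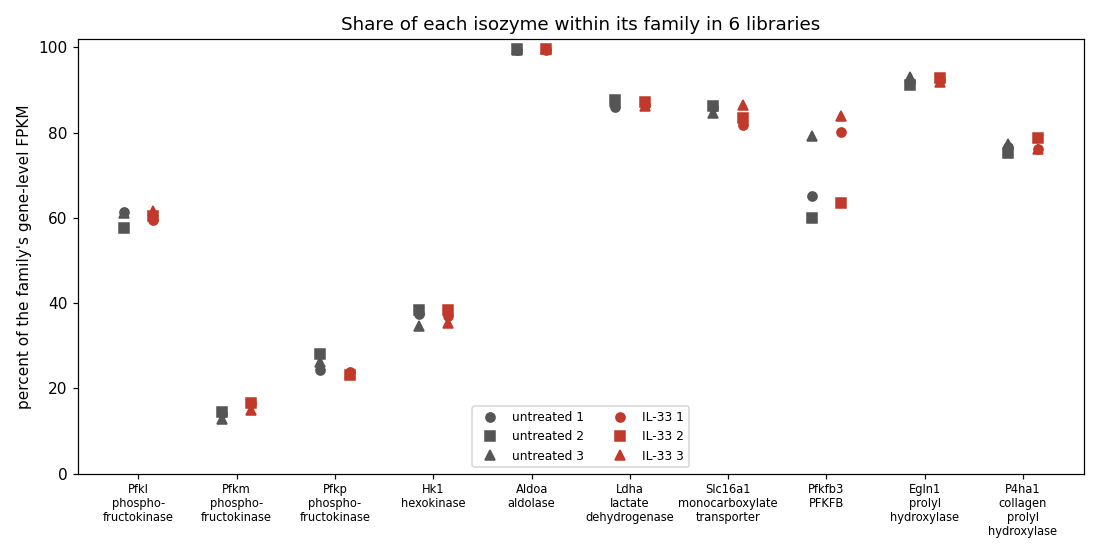
Percent of a family's gene-level FPKM (y axis) held by the named gene in each untreated (grey) and IL-33 (red) library. The 2 groups overlap apart from Pfkm, 14.8% to 16.6% with IL-33 against 12.7% to 14.5%, and Pfkp, 23.1% to 23.9% against 24.4% to 28.0%. Pfkfb3 has the largest difference of means, 7.76 percentage points, and a wide spread, 63.4% to 83.9% with IL-33 against 60.0% to 79.1%.

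Oxygen sensing genes gave no call. Hif1a, the oxygen-regulated subunit of HIF-1, stood at 214, 222 and 215 CPM untreated and at 206, 214 and 248 CPM with IL-33. IL-33 library 3 was the highest and IL-33 library 1 the lowest of the 6 (log2 fold change 0.038, 95% interval -0.11 to 0.19, adjusted p = 0.942). Vhl, which directs the destruction of hydroxylated HIF, was at 21.1 ± 1.2 and 20.4 ± 0.536 CPM. Egln1, the main prolyl hydroxylase, was at 82.6 ± 3.27 and 82.4 ± 2.11 CPM, and Egln3, a hydroxylase that is itself a HIF target, at 5.26 ± 0.543 and 5.05 ± 0.180 CPM.

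Among the other hypoxia targets the abundant genes were close between groups and the low ones could not be resolved. Ndrg1, a stress-response gene, was at 257 ± 9.37 CPM without and 265 ± 7.56 CPM with IL-33. Bnip3, a mitochondrial protein of mitophagy, was at 12.2 ± 0.757 and 13.3 ± 0.913 CPM, and P4ha1, a collagen prolyl hydroxylase subunit, at 39.0 ± 2.46 and 37.7 ± 3.25 CPM. P4ha2, its paralog, stood at 18.7, 18.3 and 18.1 CPM untreated and at 17.5, 17.2 and 16.8 CPM with IL-33. Every IL-33 library lay below the untreated ones, by a log2 fold change of -0.095 (SE 0.088, 95% interval -0.29 to 0.10, adjusted p = 0.877).

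Car9, a cell-surface carbonic anhydrase and a widely used mark of hypoxia, carried 12, 12 and 34 deposited counts untreated and 16, 9 and 33 with IL-33. About 4 deposited counts stand for 1 fragment, so 12 counts are about 3 fragments, and Car9 lay at or near that floor in both groups. Ankrd37, another sensitive hypoxia target, carried 5, 3 and 42 deposited counts untreated and 30, 18 and 37 with IL-33. Untreated library 3 was the highest of the 6, and the 95% interval of the log2 fold change ran from -1.05 to 2.79, so neither a rise nor a fall could be resolved.

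HIF-1 is known to bind DNA at the core ACGTG, and it is also found at GCGTG. RefSeq promoters on GRCm38.p6, from 250 bases before to 50 after each start, were available for 32 of the 33 genes, as 45 promoters. The letters ACGTG were present on either strand in 25 of the 45 (55.56%), against 19.62% of 32851 promoters of the same length. GCGTG was present in 26 (57.78%), against 32.39%. CACGTG, the E-box bound by MYC and other factors, contains ACGTG on both strands and so counts as 2 matches. It was present in 6 of the 45 (13.33%), against 7.15%. These are matches of letters and not sites of binding. The comparison set was all promoters, not matched to these genes for expression or base composition. Overlapping promoters of a gene, as for Aldoa, were counted separately.

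The promoters shown are 3, for the gene with the most ACGTG matches and for the pair of genes with an unadjusted p under 0.05 in opposite directions that hold the motif. Each line gives the 250 bases before the start, 5′ to 3′ on the plus strand, with ACGTG in either direction in capitals. They are at chr7:46845554-46845803 for Ldha, chr15:98092339-98092588 for the most upstream of the Pfkm promoters and chr3:104638414-104638663 for Slc16a1. For Ldha and Pfkm the promoter with the most ACGTG matches is shown. Over its whole length this Pfkm promoter held 3 matches, and the other Pfkm promoters held 1, 0 and 0 and no CACGTG.
Ldha: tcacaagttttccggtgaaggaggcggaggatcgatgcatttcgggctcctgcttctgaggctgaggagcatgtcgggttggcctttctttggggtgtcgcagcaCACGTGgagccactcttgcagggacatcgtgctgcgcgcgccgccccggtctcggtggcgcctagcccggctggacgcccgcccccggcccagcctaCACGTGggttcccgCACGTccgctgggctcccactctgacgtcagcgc
Pfkm: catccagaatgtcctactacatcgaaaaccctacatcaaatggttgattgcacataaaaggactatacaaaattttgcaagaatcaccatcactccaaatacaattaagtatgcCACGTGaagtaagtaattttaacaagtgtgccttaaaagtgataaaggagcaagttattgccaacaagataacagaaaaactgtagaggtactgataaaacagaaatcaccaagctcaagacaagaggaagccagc
Slc16a1: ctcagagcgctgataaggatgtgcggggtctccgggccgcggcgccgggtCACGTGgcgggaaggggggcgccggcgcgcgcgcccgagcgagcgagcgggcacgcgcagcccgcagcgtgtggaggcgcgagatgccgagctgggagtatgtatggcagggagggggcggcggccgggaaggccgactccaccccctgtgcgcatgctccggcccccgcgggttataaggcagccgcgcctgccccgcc

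Ldha held 5 matches in this window, and Pfkm and Slc16a1 each held 1 CACGTG, counted as 2. Over genes, 22 of the 32 had ACGTG in a promoter and a median log2 fold change of 0.031 (range -0.16 to 0.87), and 10 had none and a median of -0.0093 (range -0.34 to 0.19). Whether the motif goes with the response to IL-33 was not tested.

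The other genes of these pathways, on lists drawn up for the comparison, gave no call either. Of 27 other glycolysis and lactate genes 21 were tested, 9 with a fold change above 0 and 12 below, with a median log2 fold change of -0.069. Eno3, the muscle enolase, was at 4.00 ± 0.324 CPM without and 3.10 ± 0.178 CPM with IL-33 without overlap (adjusted p = 0.763). Slc2a3, the glucose transporter GLUT3, was at 10.2 ± 0.763 and 8.35 ± 1.77 CPM with overlap. Ldhd, a dehydrogenase of D-lactate, was at 5.45 ± 2.02 and 7.25 ± 0.578 CPM, and Adpgk, an ADP-dependent glucokinase, at 44.1 ± 3.26 and 41.2 ± 1.33 CPM, both with overlap.

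Of the 13 genes of pyruvate dehydrogenase and pyruvate entry, 8 were above 0 and 5 below, with a median of 0.050. Pdpr, a regulatory subunit of pyruvate dehydrogenase phosphatase, stood at 19.5, 18.8 and 20.9 CPM untreated and at 24.2, 25.1 and 23.6 CPM with IL-33. Its groups were well apart, with a log2 fold change of 0.30 (SE 0.087, 95% interval 0.11 to 0.50), an unadjusted p of 0.00651 and an adjusted p of 0.618. It is the only gene of that list with an unadjusted p under 0.05. Pdp2, a catalytic subunit of the same phosphatase, was at 45.9 ± 2.89 and 42.3 ± 1.90 CPM with overlap. Pcx, pyruvate carboxylase, was at 15.94 ± 1.75 and 18.05 ± 1.84 CPM, and Mpc2, a mitochondrial pyruvate carrier, at 18.2 ± 1.37 and 19.8 ± 1.20 CPM, also with overlap.

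Of 14 other oxygen sensing genes and HIF subunits, 7 were above 0 and 7 below. The groups did not overlap for 1 higher and 2 lower genes, against 7.39% higher and 6.26% lower of all genes tested. Egln2, a further HIF prolyl hydroxylase, was at 62.0 ± 2.21 CPM without and 69.0 ± 1.90 CPM with IL-33 without overlap (adjusted p = 0.740). Epas1, which encodes HIF-2alpha, stood at 2.15, 1.23 and 1.54 CPM untreated and at 2.14, 3.93 and 2.58 CPM with IL-33. Those groups overlapped at 2.14 and 2.15 CPM, and the log2 fold change of 0.81 had a 95% interval from 0.11 to 1.51 and an adjusted p of 0.740. Elob, elongin B, a partner of VHL in its ubiquitin ligase, stood at 168, 176 and 159 CPM untreated and at 155, 157 and 154 CPM with IL-33. All its IL-33 libraries lay below the untreated ones (log2 fold change -0.11, adjusted p = 0.758). Rbx1, the RING subunit of that ligase, was at 92.4 ± 5.14 and 85.2 ± 0.671 CPM, lower without overlap (adjusted p = 0.763).

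Of 30 other HIF targets tested, 14 were above 0 and 16 below, with a median of -0.025. Rragd, a GTPase of amino acid sensing, was at 8.15 ± 0.91 and 10.54 ± 1.40 CPM without overlap (adjusted p = 0.740), and Tfrc, the transferrin receptor, at 146 ± 11.7 and 123 ± 20.3 CPM with overlap. Wsb1, a ubiquitin ligase subunit, stood at 83.6, 79.8 and 82.8 CPM untreated and at 66.7, 56.3 and 81.5 CPM with IL-33. IL-33 library 3 lay among the untreated libraries and the other 2 below them (log2 fold change -0.27, adjusted p = 0.763). Fam162a, a mitochondrial protein induced by hypoxia, was at 50.9 ± 1.71 and 47.3 ± 0.807 CPM, lower without overlap (adjusted p = 0.794).

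The 6 libraries did not rank alike over the 33 genes. IL-33 library 3 was the lowest of the 6 for 11 genes and the highest for 4, and IL-33 library 1 was the highest for 8 and the lowest for 1. Untreated library 2 was the lowest for 8 genes and the highest for 5. Over the 33 genes, the median deviation of a library from the mean of each gene ran from -0.028 in untreated library 2 to 0.020 log2 units in IL-33 library 1.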

How the data were processed

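RNA of 3 untreated and 3 IL-33 keratinocyte libraries was sequenced. FastQC 0.11.7, HISAT2 2.1.0, StringTie 1.3.4d and DESeq2 1.18.1, with the mm10 genome, are named in the submitters' processing notes, while their gene annotation is not stated. The deposited estimated counts are whole numbers, per the file headers one column per library; the values pile up at multiples of 4, so about 4 counts stand for 1 fragment. The FPKM tables are as the authors deposited them. Counts were tested with edgeR 4.0.16 (quasi-likelihood, robust, TMM scaling, filterByExpr with a minimum count of 10, Benjamini-Hochberg threshold 0.05, R 4.3.3) over all genes, and likewise over transcripts. Alternatives used DESeq2 1.42.0 and limma 3.58.1. The edgeR analysis was tested on simulated data. Symbols, positions and transcripts came from GENCODE M21 (GRCm38), matching 52403 of 52550 identifiers. Near-identical copies were found with BLAST+ 2.17.0 (95% identity, 80% coverage, 300 aligned bases). Isozyme and isoform shares were tested by exact permutation. All 33 genes, and up to 4 genes with the smallest p on each other list, are named by rule. The genes and lists were chosen with earlier results of these data known.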

Additional observations from a re-analysis of the deposited data

How the results depend on the processing

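No gene of the 33 that was tested was called under any of the 10 alternatives with all libraries or with any library left out, and none turned sign under those 10. The stricter filter and the counts divided by 4 tested 31 of the 33, without Ankrd37 and Car9. DESeq2 called 73 genes in all, limma-voom 5, no filter 17, and log2(FPKM + 0.1) and log2(FPKM + 1) 5 and 4. Leaving out 1 library gave 11 to 90 genes (90 without IL-33 library 3, 18 without untreated library 3, 20 without IL-33 library 1), and 6 to 28 transcripts, against 12. The median of the 33 ran from -0.011 to 0.019. With 1 library left out, 12 genes turned sign, with log2 ranges of -0.0079 to 0.077 for Slc2a1, -0.051 to 0.028 for Hk1, -0.057 to 0.026 for Hk2, -0.062 to 0.049 for Gpi1, -0.058 to 0.011 for Eno1, -0.045 to 0.027 for Ldhb, -0.096 to 0.13 for Slc16a3, -0.034 to 0.029 for Pdk1, -0.045 to 0.089 for Hif1a, -0.043 to 0.017 for Egln1, -0.12 to 0.0016 for P4ha1 and -0.46 to 0.72 for Car9. The cause was not tested. Tpi1 kept its direction, at 0.15 to 0.25, with adjusted p from 0.139 to 0.958.

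Gapdh turned to -0.086 without Gapdh-201, an alternative chosen after seeing the data. Shares turned sign with 1 library left out, in percentage points from -0.79 to 1.20 for Pfkl, -1.03 to 0.858 for Hk1, -0.734 to 0.060 for Ldha, -0.146 to 0.762 for Egln1 and -0.238 to 1.14 for P4ha1. With summed transcript FPKM, also chosen after seeing the data, the Slc16a1 share turned to 1.38, that of P4ha1 to -1.65, and the shares without overlap fell from 2 to 1. The M1 share difference ran from 0.731 to 13.0 points.

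Replicate numbers were not shown to pair the libraries: same-numbered deviations correlated at 0.041, 0.031 and -0.015. With a replicate block, 8 genes, none of the 33 and 0 transcripts were called, and the M1 share had a paired exact permutation p of 0.5, where 0.25 is the smallest possible. Intervals cover the spread between libraries only, and those of Car9 and Ankrd37 rest on few counts that varied between libraries.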

Other observations

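Pathways that branch from glycolysis gave no call by edgeR either. Of 7 pentose phosphate genes 1 had a fold change above 0 and 6 below it, with a median log2 fold change of -0.078 against 0.0018 for all genes tested, and none had an unadjusted p under 0.05. Tkt, transketolase, which links the pentose phosphate pathway back to glycolysis, stood at 569, 503 and 588 CPM untreated and at 514, 516 and 493 CPM with IL-33. Untreated library 2 lay among the IL-33 libraries, and the adjusted p was 0.754. Rpia, ribose 5-phosphate isomerase, was at 29.0 ± 2.92 and 26.4 ± 1.82 CPM with overlap (SD, n = 3). Pgls, which hydrolyses 6-phosphogluconolactone, was at 41.2 ± 2.12 and 38.5 ± 2.99 CPM, and Rpe, ribulose 5-phosphate epimerase, at 44.4 ± 3.74 and 42.0 ± 3.01 CPM, both with overlap.

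Of 16 citric acid cycle genes 9 were above 0 and 7 below, with a median of 0.024. For 3 of them all IL-33 libraries lay above all untreated ones, as they did for 7.39% of all genes tested. One of the 3 was Suclg1, a subunit of succinyl-CoA ligase, at 89.6, 87.9 and 85.3 CPM untreated and 91.7, 95.5 and 91.9 CPM with IL-33 (log2 fold change 0.086, adjusted p = 0.80). Mdh2, mitochondrial malate dehydrogenase, was at 399 ± 24.0 and 378 ± 4.53 CPM with overlap. Sdhc, a subunit of succinate dehydrogenase, was at 91.0 ± 3.15 and 96.5 ± 2.15 CPM, and Idh3a, a subunit of isocitrate dehydrogenase, at 137 ± 8.19 and 130 ± 5.50 CPM, both with overlap.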
